A study of Mus musculus with 5 samples.

Results

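Complex I of the mitochondrial respiratory chain takes electrons from NADH, passes them to ubiquinone and pumps protons across the inner membrane. The genes described here are the nuclear genes named for it, taken as every row of the deposited table whose mouse gene symbol begins with Nduf. This rule gave 47 of 51912 rows, and it used no measured value. It did not take the gene Ndufb1-ps, which has no symbol in the deposited table, so the subunits below may not be complete. By function the 47 rows held 7 core subunits, 29 supernumerary subunits, 8 assembly factors (Ndufaf1 to Ndufaf8), Ndufa4 and its relative Ndufa4l2, and the processed pseudogene Ndufab1-ps.

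RNA sequencing was done on C57BL/6 mice (C57BL/6J by their source) labelled sham (2 libraries) or stroke (3 libraries). The protocol, worded alike for all samples, names ketamine and xylazine as anesthetics and does not say what the sham operation was. For stroke, a filament closed the middle cerebral artery for 30 minutes, blood flow had to fall by at least 80%, and movement was scored at 24 hours. The tissue, the time of sampling, and the sex and age of the animals are not stated in the labels. The series is about TRIM9, an E3 ubiquitin ligase of neurons, and inflammation after stroke, and its labels name no genetic change in either group. The labels do not say that each library came from its own animal, so p-values measure the spread between these libraries, which may be technical.

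Complex I is an L-shaped enzyme with a peripheral arm in the matrix and an arm in the membrane. In the peripheral arm, the N module holds the flavin that accepts electrons from NADH, and the Q module hands them over a chain of iron-sulfur clusters to ubiquinone. The membrane arm, or P module, is built around the subunits encoded by mitochondrial DNA and has a part near the peripheral arm (proximal) and a part far from it (distal). Core subunits carry the catalytic chemistry and are shared with bacteria, supernumerary subunits surround and stabilise the core, and assembly factors help to build the enzyme without being part of it. In brain, complex I is a main entry point for the electrons that drive ATP synthesis, and it is known as a site of reactive oxygen formation when blood flow returns after ischemia.

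The authors' deposited table held an adjusted p-value for 46 of the 47 genes, and Ndufab1-ps, at a mean of 1.09 normalised reads, had none. A gene was called when the adjusted p of the DESeq2 Wald test (Benjamini-Hochberg over 17420 genes) was below 0.05. Whole reads per library were recovered for all 47 genes from the deposited statistics, and normalised reads below are reads divided by the size factor of the library. Nothing ties the recovered libraries to the replicate numbers in the labels, so the sham libraries are named the deeper (size factor 0.945) and the shallower (0.734), and the stroke libraries 1 to 3 by falling size factor (1.16, 1.13 and 1.12). In units of 1e6, recovered reads came to 9.86 and 7.86 in the sham libraries and 12.0 to 12.9 in the stroke libraries, over 15314 genes. Other genes with a mean above 4000 normalised reads were not searched. These totals thus leave out the most abundant genes and are below the full depth of the libraries. The sham libraries stood apart from each other. The median ratio between them was 1.40 among the 46 genes, against 1.18 between the highest and the lowest of the 3 stroke libraries. Their ratio was the wider of these in 38 of 46 genes.

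The libraries were made from bulk RNA, in which fewer cells of a type and less RNA per cell cannot be told apart. All 6 neuron markers were abundant, with means from 6608 (Stmn2) to 65803 (Snap25) normalised reads, and none of the 6 was called in the authors' deposited table, with log2 fold changes of 0.05 to 0.37. None of 5 astrocyte, 5 oligodendrocyte, 5 microglia or 5 endothelium markers was called either, with median log2 fold changes of -0.03, -0.35, 0.36 and 0.47. There, 2 of 5 choroid plexus markers and 5 of 5 red blood cell markers were called lower in stroke. The 2 red blood cell markers with recovered reads summed to 2048 and 353 in the deeper and the shallower sham library and to 52.9 to 163 in the stroke libraries. The 3 choroid plexus markers with recovered reads (Kl, Clic6 and Kcnj13) were not among the called ones. They summed to 1288 and 199 in the sham libraries and to 348 to 365 in the stroke libraries. No marker of the 7 lists had a mean of 0. The part of these cell types in the values below was not tested.

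Complex I genes were, with 1 exception, not called in either direction after stroke. In the authors' deposited table, 1 of 46 tested genes was called higher, where 0.775% of all tested genes were called higher. The called gene was Ndufs5. None was called lower by the DESeq2 Wald test, where 0.786% of all tested genes were, and limma called none in either direction, where it called 0.0131% of all genes higher and 0.00653% lower. At an unadjusted p below 0.05 the count was 1 higher and 2 lower (Ndufb4 and Ndufa3), where 10.5% of all tested genes were below that level. The median log2 fold change was 0.09 over the 46 genes, with 35 above 0 and 11 below, against -0.02 over all 17420 tested genes. Among the 10798 tested genes with a mean of at least that of the lowest subunit it was 0.03. Over the 46 genes the median was 0.26 in a limma fit without the deeper sham library and -0.10 without the shallower, so its sign rests on which sham library is used. The 95% interval of the fold change lay within 2-fold in both directions for 41 of 46 genes and within 1.5-fold for 16. The 5 genes whose intervals reached past 2-fold, named here after their values were seen, were Ndufs5, Ndufb4, Ndufb7, Ndufa2 and Ndufa4l2.

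**Figure D1:**
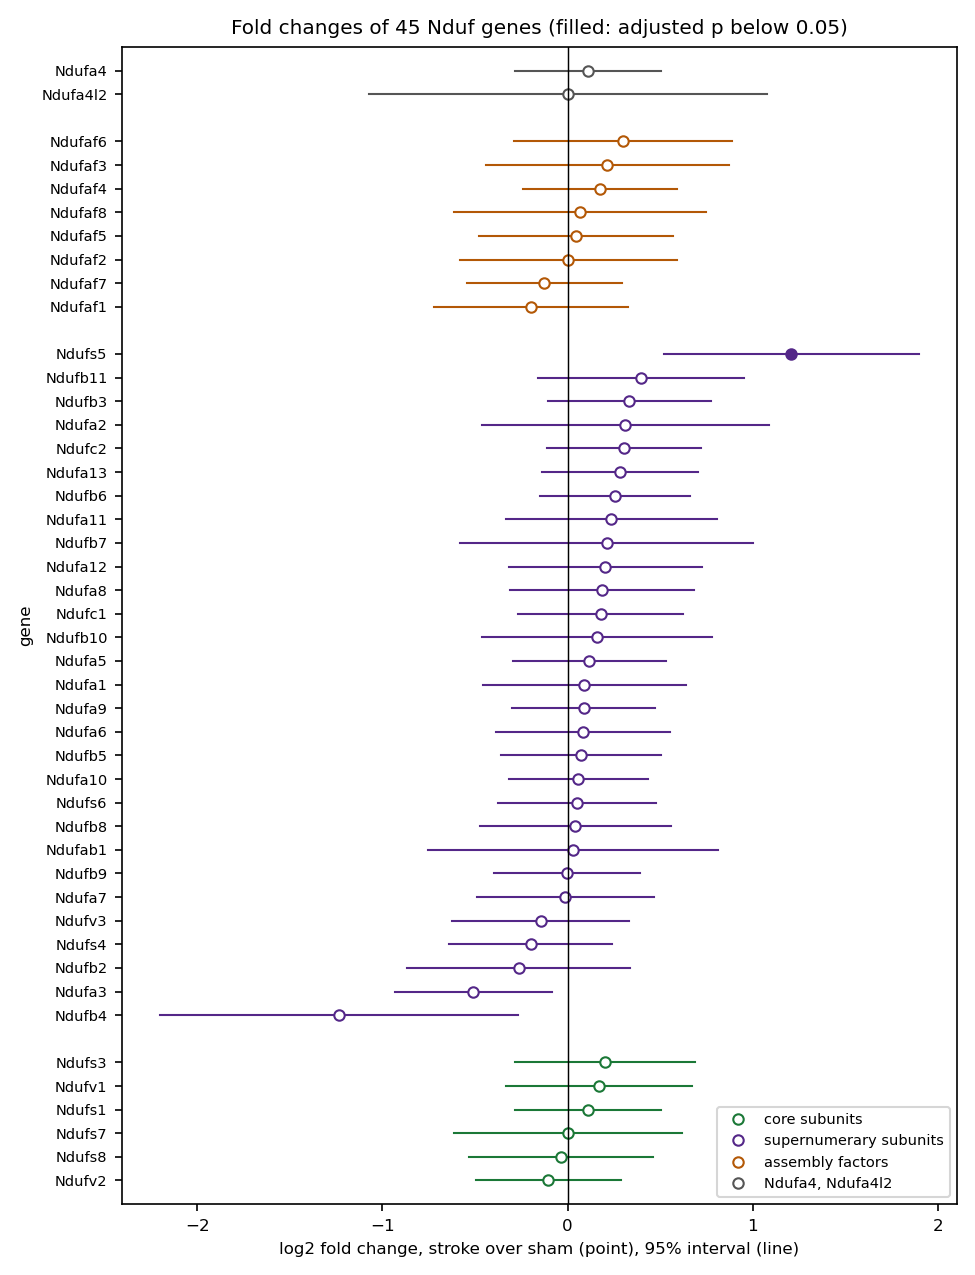
Log2 fold change of stroke over sham for 45 of the 46 tested Nduf genes, grouped by role, with 95% intervals as lines; a filled point marks an adjusted p below 0.05. Ndufs5 is the only filled point, at 1.21, and Ndufb4, at -1.23, lies farthest on the other side.

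Placed against both sham libraries, 7 of 46 genes had every stroke library above both (Ndufs5, Ndufb3, Ndufb6, Ndufc1, Ndufc2, Ndufaf4 and Ndufaf6), where 13.2% of 15313 tested genes with recovered reads did. Ndufa3 and Ndufaf7 had every stroke library below both, where 11.7% did. The other 37 genes overlapped between the groups, as did 11501 of the 15313. In 15 of the 46 genes all 3 stroke libraries lay between the 2 sham libraries, as in 4291 of the 15313. Summed over the 36 subunits, normalised reads were 49355 in the deeper sham library and 41283 in the shallower. The sums were 50558, 48754 and 44110 in stroke libraries 1, 2 and 3. The stroke sum was 47807 ± 3327 (SD, n = 3). Stroke library 1 was just above the sham pair, and the others lay inside it.

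Ndufs5 encodes a small supernumerary subunit of the proximal membrane arm that faces the intermembrane space. The gene (ENSMUSG00000028648) lies on chromosome 4, 123712710 to 123718202 on the minus strand of GRCm38. The first 240 bases of its coding sequence are shown because a processed pseudogene elsewhere, BC002163 on chromosome 16 (42955631 to 42955949), repeats nearly all of that sequence, so that short reads could fit either. Of 319 aligned bases, 317 are identical. Both mismatches fall in the bases shown, where capitals mark them, T81C and A105G, given as the Ndufs5 base, its position from the first base of the coding sequence, and the BC002163 base. Both sequences are from GENCODE vM21 transcripts on GRCm38, 5′ to 3′.
Ndufs5: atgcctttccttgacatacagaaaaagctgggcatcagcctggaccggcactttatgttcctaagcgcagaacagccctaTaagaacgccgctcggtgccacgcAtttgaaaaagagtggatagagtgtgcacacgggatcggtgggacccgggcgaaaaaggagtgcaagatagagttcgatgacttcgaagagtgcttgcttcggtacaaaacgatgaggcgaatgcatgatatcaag
BC002163: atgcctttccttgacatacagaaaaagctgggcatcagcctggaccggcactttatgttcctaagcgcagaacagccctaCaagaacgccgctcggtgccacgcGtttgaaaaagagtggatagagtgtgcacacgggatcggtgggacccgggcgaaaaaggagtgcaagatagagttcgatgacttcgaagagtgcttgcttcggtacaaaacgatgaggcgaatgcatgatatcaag

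Ndufs5 held 127 and 74.9 normalised reads in the deeper and the shallower sham library and 264, 232 and 208 in stroke libraries 1, 2 and 3. Every stroke library was above both sham libraries, and the lowest stroke value was well clear of the higher sham value. The authors' deposited table gave a log2 fold change of 1.21 (SE 0.35), or 2.31-fold with a 95% interval of 1.43 to 3.73, with p = 0.000598 and an adjusted p = 0.0412 by the DESeq2 Wald test. The stroke mean was 235 ± 27.95 normalised reads (SD, n = 3). These values rest on 120 and 55 reads in the sham libraries and 305, 263 and 232 reads in the stroke libraries, so the shallower sham library is the least precise. Ndufs5 had the fewest normalised reads of the 36 subunits, at a mean of 181, and was the third lowest per kilobase of its principal transcript, at 266.

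The call of Ndufs5 was close to the threshold. Adjusted over all 31651 genes with a p-value, its adjusted p was 0.0749. In limma on recovered reads its log2 fold change was 1.25 with an adjusted p of 0.478, and over the other limma fits, with another scaling, without GC content or without each library in turn, adjusted p ran from 0.0155 (without the deeper sham library) to 1 (without stroke library 1 or 2). The limma fold change kept its sign throughout, from 0.87 without the shallower sham library to 1.63 without the deeper. With all 5 libraries, limma called only 2 of 15313 genes higher and 1 lower, and no more without any 1 stroke library. High adjusted p-values in those fits thus say little about Ndufs5 itself. BC002163 itself had only 13.8 and 10.9 normalised reads in the sham libraries and 17.3, 14.1 and 16.1 in the stroke libraries. Its log2 fold change in the authors' deposited table was 0.36 (SE 0.79, adjusted p = 0.962 by the DESeq2 Wald test). Added together, the gene and its copy held 141 and 85.8 in the sham libraries against 281, 247 and 224 in the stroke libraries, or 2.21-fold higher in stroke by the means. The sum holds only reads that were counted at either place, so reads that fit both may be missing from it. How reads that match several places were counted is not given in the sources used here.

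Ndufb4 encodes a supernumerary subunit of the distal membrane arm, and had the lowest fold change of the family. The gene (ENSMUSG00000022820) lies on chromosome 16, 37647170 to 37654453, minus strand. The first 240 bases of its coding sequence are shown for the same reason as those of Ndufs5. All 390 bases recur in the processed pseudogene Ndufb4c on chromosome 15 (73809507 to 73809896). No read was counted at Ndufb4c in any library, but reads from it would also fit Ndufb4. With no mismatch between them, no base is in capitals.
Ndufb4: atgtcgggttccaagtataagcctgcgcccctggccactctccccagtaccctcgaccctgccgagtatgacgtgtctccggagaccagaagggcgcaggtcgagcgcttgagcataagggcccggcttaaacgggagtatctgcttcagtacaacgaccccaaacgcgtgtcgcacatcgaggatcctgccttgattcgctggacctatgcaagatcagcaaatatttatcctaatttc

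Normalised reads of Ndufb4 were 179 in the deeper sham library and 612 in the shallower, against 155, 200 and 149 in stroke libraries 1, 2 and 3. The shallower sham library alone was high, and the deeper lay among the stroke libraries. The authors' deposited table gave a log2 fold change of -1.23 ± 0.49 (SE; p = 0.0124, adjusted p = 0.244 by the DESeq2 Wald test). The 95% interval ran from 0.217-fold to 0.831-fold. In limma the log2 fold change was -1.87 (adjusted p = 0.0119) without the deeper sham library and -0.10 (adjusted p = 0.846) without the shallower. The 2 sham libraries differed by 3.42-fold for Ndufb4, the widest sham ratio among the 46 genes, while the 3 stroke libraries spanned 1.34-fold.

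Ndufa3, a supernumerary subunit of the proximal membrane arm, was the other gene with an unadjusted p below 0.05 and a negative fold change. It held 1090 and 1215 normalised reads in the deeper and the shallower sham library and 865, 853 and 712 in the stroke libraries. All stroke values were lower than both sham values, and the sham libraries were close to each other. The authors' deposited table gave a log2 fold change of -0.51 ± 0.22 (SE; p = 0.0190, adjusted p = 0.303 by the DESeq2 Wald test), so Ndufa3 was not called. It is described here after its values were seen.

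**Figure D2:**
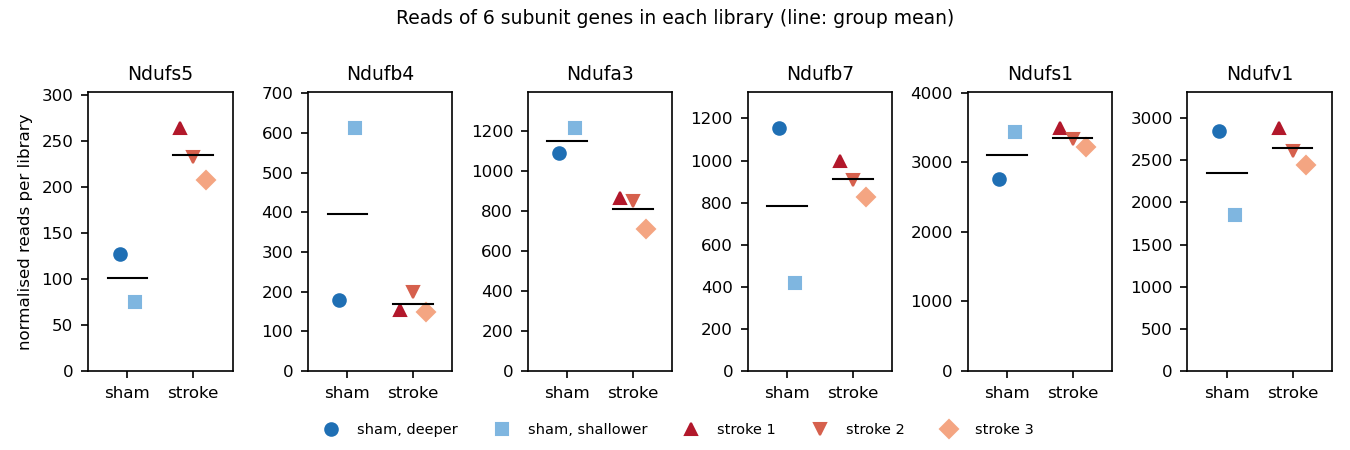
Normalised reads of 6 subunit genes in each library, sham on the left and stroke on the right of each panel, with 1 point per library and a line at the group mean; each axis starts at 0. Ndufs5 and Ndufa3 separate the groups, the shallower sham library is far from the deeper for Ndufb4 (612 against 179) and Ndufb7 (417 against 1153), and the core subunits Ndufs1 and Ndufv1 overlap.

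The 7 core subunits of the nuclear genome were all tested, and none was called in the authors' deposited table by the DESeq2 Wald test. At an unadjusted p below 0.05 the count was also 0, limma called none, and the log2 fold changes ran from -0.11 to 0.20. Stroke and sham overlapped for all 7, as they did for 11501 of 15313 tested genes with recovered reads. In each of the 7, stroke library 1 was the highest of the stroke libraries and stroke library 3 the lowest. Over the 15313 genes, stroke library 1 was the highest of the 3 in 5235 and stroke library 3 the lowest in 5492. Every 95% interval of a core subunit lay within 2-fold in both directions.

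In the N module, Ndufv1 binds NADH and the flavin. It held 2852 and 1850 normalised reads in the deeper and the shallower sham library and 2879, 2610 and 2446 in stroke libraries 1 to 3, for a log2 fold change of 0.17 ± 0.26 (SE; DESeq2 Wald test, adjusted p = 0.937) in the authors' deposited table. Only the shallower sham library was low. Ndufv2, an iron-sulfur protein beside it, held 2723 and 3250 in the sham libraries and 2944, 2809 and 2574 in the stroke libraries. Its log2 fold change there was -0.11 (SE 0.20, adjusted p = 0.957, DESeq2). Ndufs1, the largest iron-sulfur subunit of the module, had the most normalised reads of all 46 genes, at a mean of 3250, and held 2766 and 3442 in the sham and 3489, 3330 and 3225 in the stroke libraries. The table gave it a log2 fold change of 0.11 ± 0.20 (SE; DESeq2 adjusted p = 0.955). Here the deeper sham library was the low one.

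In the Q module, Ndufs7 lies at the ubiquinone site and carries the last iron-sulfur cluster of the chain. It held 1376 and 723 normalised reads in the deeper and the shallower sham library and 1127, 1078 and 956 in the stroke libraries, and its log2 fold change in the authors' deposited table was 0.00 (SE 0.31, adjusted p = 1.000, DESeq2). The stroke libraries lay between the sham libraries. Ndufs8, which also carries iron-sulfur clusters, held 1273 and 891 against 1124, 1117 and 930, again inside the sham pair, for a log2 fold change of -0.04 ± 0.25 (SE; DESeq2 adjusted p = 0.991) in the authors' table. Ndufs3, a core subunit that holds no cluster, had 747 and 1045 against 1138, 981 and 971. Its log2 fold change in the authors' deposited table was 0.20 (SE 0.25, adjusted p = 0.915, DESeq2), the highest of the 7.

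Of the 29 supernumerary subunits, 1 was called higher (Ndufs5) and 0 lower in the authors' deposited table by the DESeq2 Wald test, with 2 at an unadjusted p below 0.05 and a negative sign (Ndufb4 and Ndufa3). Limma called 0 of the 29. Their median log2 fold change was 0.09, and 26 of 29 lay within 0.5 of 0. The highest mean among them was that of Ndufa10, a membrane-arm subunit related to nucleoside kinases, with 2933 and 2668 normalised reads in the deeper and the shallower sham library and 3122, 2941 and 2681 in the stroke libraries. Its log2 fold change of 0.06 in the authors' deposited table had the smallest standard error of the family (SE 0.19, adjusted p = 0.984, DESeq2), and its 95% interval ran from 0.803-fold to 1.35-fold.

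Sorted by module, and with the core subunits included, the median log2 fold change was 0.08 for the 8 N module genes, 0.06 for the 8 Q module genes, 0.19 for the 9 proximal and 0.07 for the 11 distal membrane-arm genes in the authors' deposited table. Differences between modules were not tested. In the N module no gene separated the groups, and the fold changes ran from -0.20 for Ndufs4, whose loss in mice causes a fatal brain disease like Leigh syndrome, to 0.31 for Ndufa2. In the Q module fold changes ran only from -0.04 (Ndufs8) to 0.20 (Ndufs3). In the proximal membrane arm, 8 of 9 genes had a positive sign, as did 8224 of all 17420 tested genes. The shallower sham library was the lowest of the 5 libraries in 8 of the 9, against 2 of 8 in the N module. That count was 6 of 8 in the Q module and 6 of 11 in the distal arm. Proximal genes summed to 10960 normalised reads (deeper sham) and 9013 (shallower sham), with a stroke mean of 10957 ± 768 (SD, n = 3). The part of the shallower library in the proximal median was not tested. Ndufs5, Ndufc1 and Ndufc2 had every stroke library above both sham libraries, where 13.2% of all genes with recovered reads did. Ndufc2 held 1489 and 1172 normalised reads in the sham libraries against 1716, 1618 and 1601 in the stroke libraries, for a log2 fold change of 0.31 ± 0.21 (SE; DESeq2 adjusted p = 0.726) in the authors' table. In the distal arm, Ndufb3 and Ndufb6 had every stroke library above both sham libraries, and the fold changes ran from -1.23 (Ndufb4) to 0.40 (Ndufb11).

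Levels of the subunits can be set beside each other only per length. Per kilobase of the principal transcript, the 36 subunits had a median of 1306 normalised reads per kilobase, from 106 for Ndufb2 to 3451 for Ndufb9, both in the distal membrane arm. After Ndufb2 the lowest were Ndufab1, the mitochondrial acyl carrier protein (130), Ndufs5 (266) and Ndufb4 (266). Ndufb2 and Ndufab1 have the longest annotated principal transcripts of the 36 (4371 and 3479 bases), so their levels per kilobase depend on whether those ends were transcribed here. Ndufab1, Ndufs5 and Ndufb4 have near-identical processed pseudogenes elsewhere, and reads that fit both places may not have been counted. Their levels per kilobase may thus be too low, which was not tested.

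None of the 8 assembly factors was called in the authors' deposited table by the DESeq2 Wald test, none had an unadjusted p below 0.05, and limma called none. Their median log2 fold change was 0.06, and all 8 intervals lay within 2-fold. Per length they held 127 to 409 normalised reads per kilobase, against a median of 1306 for the subunits. Ndufaf6, which acts early in assembly, had the highest fold change. It held 123 and 119 normalised reads in the deeper and the shallower sham library and 151, 148 and 147 in the stroke libraries, all above the sham values, for a log2 fold change of 0.30 ± 0.30 (SE; DESeq2 adjusted p = 0.881) in the authors' deposited table. Ndufaf1, a chaperone of the early membrane arm, had the lowest, at -0.20 (SE 0.27, adjusted p = 0.925, DESeq2) in that table, with 360 and 507 against 352, 374 and 406. Ndufaf4, a partner of Ndufaf3 in building the Q module, had the highest mean, and held 657 and 798 against 816, 805 and 844. Its log2 fold change in the authors' deposited table was 0.18 (SE 0.21, adjusted p = 0.914, DESeq2). Ndufaf7, a mitochondrial methyltransferase, held 622 and 556 in the sham libraries and 515, 553 and 555 in the stroke libraries, lower by a margin that is small beside the sham difference.

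Ndufa4 carries the family name but is now counted as a subunit of complex IV. It held 2574 and 2429 normalised reads in the deeper and the shallower sham library and 2964, 2745 and 2395 in the stroke libraries, which overlap, for a log2 fold change of 0.11 ± 0.20 (SE; DESeq2 adjusted p = 0.954) in the authors' deposited table. At 4298 normalised reads per kilobase it was above every complex I subunit. Ndufa4l2, its relative and a known target of hypoxia-inducible factor, was low, with 49.7 and 27.2 normalised reads in the sham libraries and 38.0, 34.5 and 43.9 in the stroke libraries. The stroke values lay inside the sham pair, and the log2 fold change in the authors' deposited table was 0.00 (SE 0.55, adjusted p = 1.000, DESeq2). Its 95% interval, from -1.07 to 1.08 on the log2 scale, still allows a change of about 2-fold in either direction. The pseudogene Ndufab1-ps held 1, 0, 3, 1 and 1 reads in the 5 libraries.

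**Figure D3:**
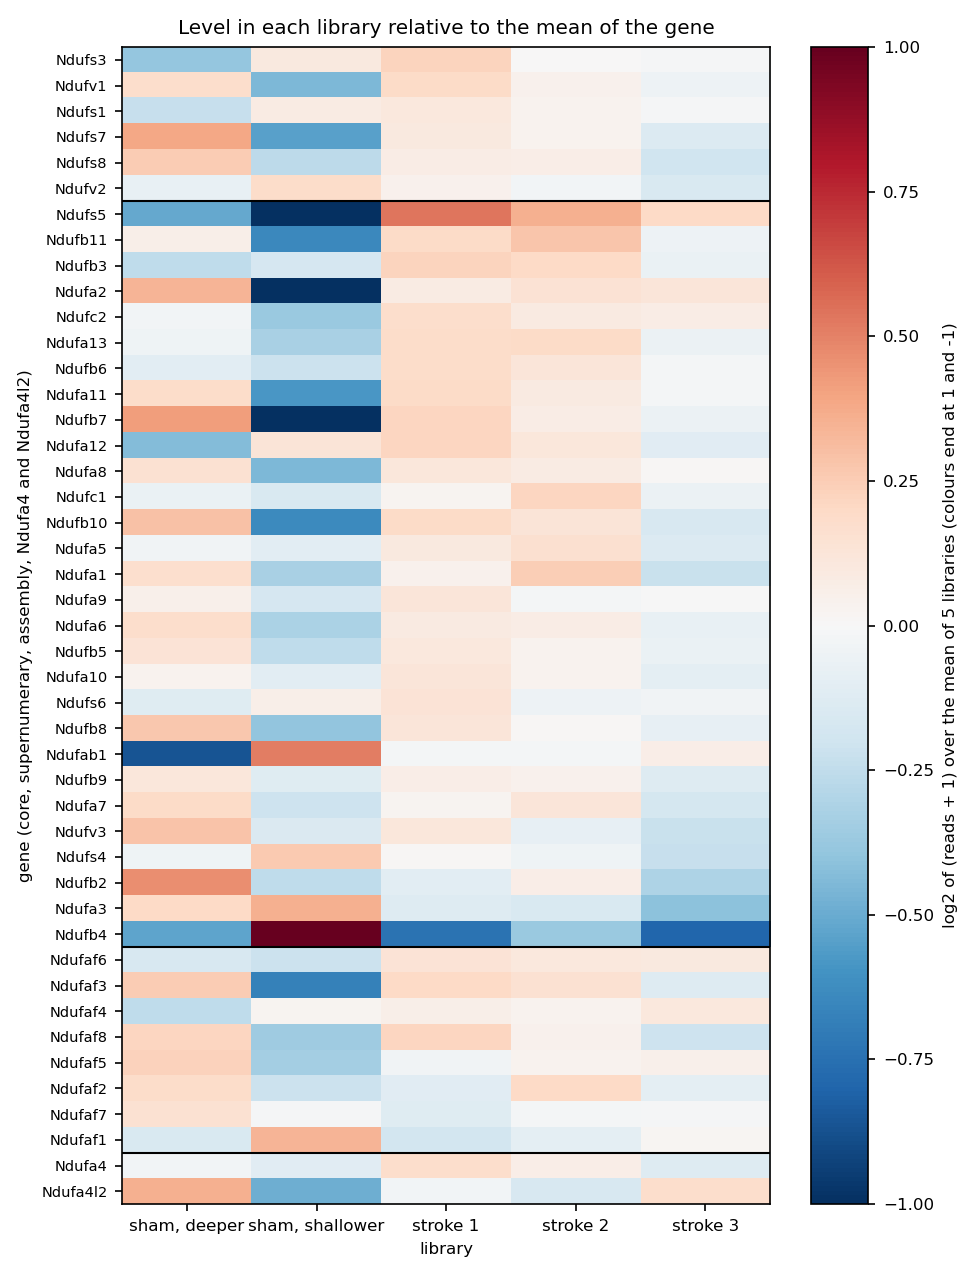
Level of 45 of the 46 tested Nduf genes (rows, grouped by role and ordered by fold change) in each of the 5 libraries (columns), as log2 of normalised reads plus 1 over the mean of the gene; red is above and blue below that mean. The 2 sham columns differ from each other in most rows. The shallower is the lowest of the 5 in 28 of 46 genes, against 5257 of 15313 tested genes with recovered reads. The 3 stroke columns differ by at most 1.39-fold in any row.

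The difference between the sham libraries touched most of the family, and it was not limited to it. Over the 10708 tested genes with a mean of at least 100 and recovered reads, the median ratio was 1.38 between the sham libraries and 1.21 across the stroke libraries, and the sham ratio was the wider in 7068. The shallower sham library was below the deeper in 34 of 46 genes and above it in 12. Of the 15313 tested genes with recovered reads, it was below in 8033 and above in 7280. The median log2 ratio of the shallower to the deeper was -0.37 over the 46 genes and -0.05 over the 15313. The shallower sham library was lower than all 4 other libraries in 28 of the 46 genes and higher than all 4 in 6. Over the 15313 genes these counts were 5257 and 4623. In 38 of 46 genes the sham libraries differed from each other by more than the means of the stroke and sham groups did. The ratio exceeded 1.5-fold for 15 genes between the sham libraries, for 0 genes across the stroke libraries and for 2 genes (Ndufs5 and Ndufb4) between the group means. The counts against the group means and past 1.5-fold were not made over all genes. Ndufb7, a cysteine-rich subunit of the distal arm, held 1153 and 417 in the sham libraries and 997, 908 and 827 in the stroke libraries. Ndufa2 of the N module held 791 and 298 against a stroke mean of 677 ± 15.6 (SD, n = 3). Ndufab1 went the other way, with 248 and 644 against 444, 446 and 474. For these 3 genes, picked after their values were seen, the stroke libraries all lay between the sham libraries.

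The ratio of the shallower to the deeper sham library fell as the GC content of the principal transcript rose. Across the 46 genes, whose GC content ran from 39.5% to 60.7%, Spearman's rho was -0.55, and across 10331 tested genes with a mean of at least 100 it was -0.71. The genes share the same 2 libraries and are not independent, so rho is a description. For the log2 fold change of stroke over sham, rho with GC content was 0.10 across the 46 genes and 0.26 across the 10331. With GC content removed within each library, limma called 0 of 46 genes, where it called 0.0153% of all genes higher and 0.00765% lower, and the median log2 fold change was 0.09. The part of GC content in single fold changes was not tested.

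Processed pseudogenes at least 95% identical over at least 200 bases exist elsewhere in the genome for 8 of the 46 genes: Ndufa12, Ndufab1, Ndufb3, Ndufb4, Ndufb11, Ndufs3, Ndufs5 and Ndufs6. Of these 8, 6 were higher in the shallower than in the deeper sham library, as were 6 of the other 38. The gene called higher, Ndufs5, and the gene with the lowest fold change, Ndufb4, are both among the 8. Reads counted at the pseudogenes were few, with means from 0 (Ndufb4c) to 14.4 (BC002163) normalised reads in the authors' deposited table. Reads of Ndufa13, Ndufb5, Ndufb6 and Ndufb9 may be shared with another gene whose exons overlap theirs. The part of such copies and overlaps in the values was not tested.

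**Figure D4:**
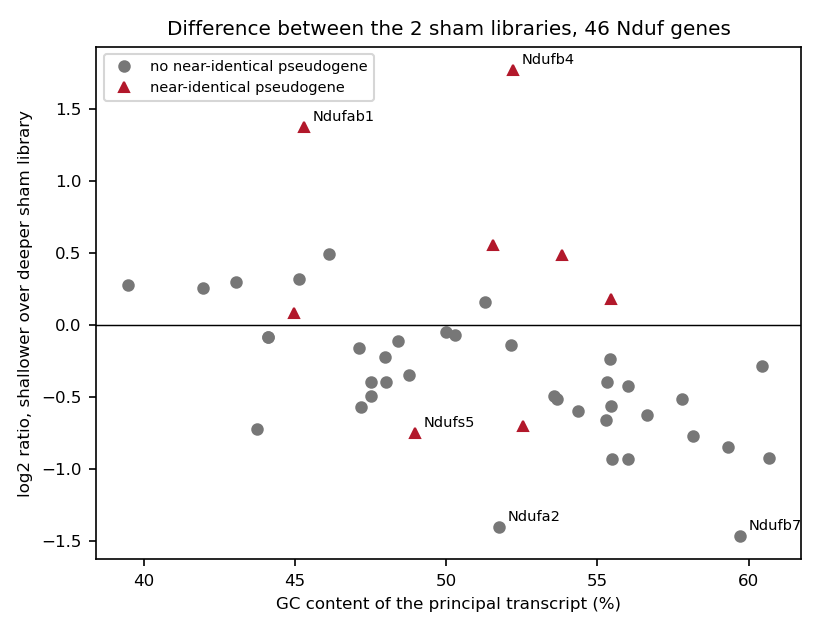
Log2 ratio of the shallower to the deeper sham library for each of the 46 tested Nduf genes against the GC content of its principal transcript, with triangles for genes that have a near-identical pseudogene. Most genes of high GC content lie below 0 (rho of -0.55 across the genes), and 6 of 8 triangles lie above 0.

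Without the deeper sham library, limma called 7 of the 46 genes higher (Ndufa2, Ndufa11, Ndufaf3, Ndufb7, Ndufb10, Ndufb11 and Ndufs5), where 7.68% of all genes in that fit were called higher, and 1 lower (Ndufb4), where 5.4% were. Without the shallower sham library it called none of the 46, where 1.75% were called higher and 0.862% lower. In each of these fits the lone sham library is assumed to vary like the stroke libraries.

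Complex I also holds 7 subunits of the mitochondrial genome, and 5 of these were tested in the authors' deposited table. Of the 5, 1 was called lower, where 0.786% of all tested genes were, and 0 higher. The called gene was mt-Nd6, the only 1 of the 7 encoded on the light strand, with a log2 fold change of -1.08 ± 0.32 (SE; DESeq2 Wald test, adjusted p = 0.0431) in that table. Adjusted over all 31651 genes with a p-value, its adjusted p was 0.0783, so the call was lost there. The strand setting of the counting is not given in the sources used here, so reads of mt-Nd6 and of transcripts from the other strand cannot be told apart. The other 4 (mt-Nd1, mt-Nd2, mt-Nd4 and mt-Nd5) had log2 fold changes from -0.09 to 0.30 in the authors' table. Reads per library were not recovered for these genes, whose means were too high for the search. The remaining genes, mt-Nd3 and mt-Nd4l, had means of 0.212 and 0 normalised reads and no adjusted p.

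Other assembly factors, which do not carry the family name, had 12 tested members in the authors' deposited table, with 0 called in either direction by the DESeq2 Wald test, 0 at an unadjusted p below 0.05, and a median log2 fold change of 0.00. The 2 with the smallest p were Tmem126b, part of the membrane-arm assembly complex (-0.49, SE 0.26, adjusted p = 0.520, DESeq2), and Tmem70 (0.29, SE 0.21, adjusted p = 0.739, DESeq2). Tmem126b held 784 and 856 normalised reads in the sham libraries and 456, 646 and 653 in the stroke libraries, all lower. Every stroke library lay below both sham libraries in 11.7% of all tested genes with recovered reads.

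The other respiratory complexes stood beside complex I as follows in the authors' deposited table. The median log2 fold change was 0.02 over 4 tested genes of complex II, 0.12 over 9 of complex III, 0.16 over 10 of complex IV and 0.31 over 15 of complex V, against 0.09 over the 36 subunits of complex I. None of these 38 genes was called by the DESeq2 Wald test. At an unadjusted p below 0.05 and with a positive sign there were 2 in complex IV (Cox5a and Cox5b) and 3 in complex V (Atp5j2, Atp5g1 and Atp5g2), and none in complexes II and III, where 843 of all 17420 tested genes met both. Cox5a, a subunit of cytochrome oxidase, held 2044 and 1458 normalised reads in the sham libraries and 2710, 2548 and 2499 in the stroke libraries, for a log2 fold change of 0.56 ± 0.23 (SE; DESeq2 adjusted p = 0.265) in the authors' table. Atp5j2, a membrane subunit of ATP synthase, held 1163 and 1021 against 1713, 1673 and 1463. Its log2 fold change there was 0.57 (SE 0.21, adjusted p = 0.175, DESeq2). The sham libraries lay further apart for Atp5g1 (250 and 775 against 1130, 1092 and 1122) and Atp5g2 (13.8 and 114 against 218, 216 and 171). All complexes share the same 5 libraries, and differences between them were not tested.

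**Figure D5:**
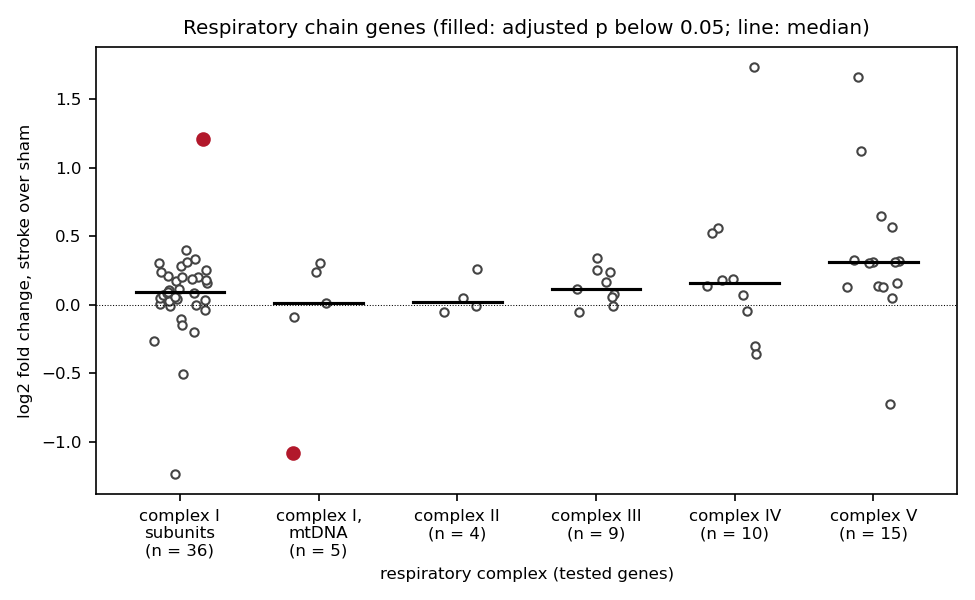
Log2 fold change of stroke over sham for the tested genes of the nuclear complex I subunits, the complex I subunits of mitochondrial DNA and complexes II to V, 1 point per gene, with a line at the median; filled points have an adjusted p below 0.05. Only Ndufs5 and mt-Nd6 are filled, and the medians run from 0.01 for the mitochondrial genes to 0.31 for complex V.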

How the data were processed

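The deposited file is a results table of DESeq2 with 1 row per gene and no values per library, per the file headers. The submitters' processing notes list the build GRCm38 and, without roles, DESeq2 1.14.1, featureCounts 1.5.1, STAR 2.5.2b and FastQC. The labels' protocols give TRIzol and RNeasy extraction and a KAPA stranded mRNA-seq kit. The labels do not state the annotation, the strand setting or how multi-mapping reads were treated. Per gene, the authors deposited a signal (the mean of counts divided by size factors), a log2 fold change with its SE in log2 units, a Wald score, a p-value and an adjusted p-value. Positive fold changes were taken to mean higher in stroke, since genes with 1 read in 1 library gave positive values in 3 libraries and negative values in 2.

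Whole reads per library were searched for with numba 0.67.0 by refitting the authors' DESeq2 model. A set was accepted where it alone, within the first search range that held any solution, gave the deposited mean, fold change and SE. This gave reads for 15313 of 17420 tested genes (87.9%) and all 47 genes described. More than 1 solution in that range was found for 0 genes, and wider ranges were then not searched. Of 300 genes with a mean shifted on purpose, 0 were accepted at the narrowest setting of the search. The wider settings, used for real genes where the narrowest found no solution, were not checked in this way. The search was also tested on simulated data. The deposited test is the main one, at an adjusted p below 0.05. Alternatives used limma 3.58.1 (R 4.3.3, trend and robust) on log2 of recovered normalised reads plus a pseudocount of 1, also tested on simulated data. Copies were found with BLAST+ 2.17.0 on GENCODE vM21 transcripts, which also gave lengths and GC content.

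The genes, their classes and the related lists were chosen with earlier results of these data known. Named in full were all called genes, the 7 core subunits and, per class, the genes with the highest and lowest fold change and the highest mean. Of related lists, called genes or the 2 with the smallest p are named. The cell type markers and complexes II and III did not follow this rule. Any other genes named were chosen after their values were seen. The values of 1 gene are not reported here; it is part of counts and medians. Columns of per-sample values left out numbered 0. Intervals are 95%, from the deposited SE, and cover the 5 libraries only.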

Additional observations from a re-analysis of the deposited data

How the results depend on the processing

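The count of complex I genes called higher in stroke was 1 in the deposited test, and 1 among genes above 5 counts per 1e6 (CPM), with complex I subunits only, and with fold changes re-centred on the median of all tested genes. It was 0 when adjusted over every gene with a p-value, in a test against a fold change of 1.5, in limma on recovered reads with either scaling, and in limma with GC content removed in each library (an alternative chosen after seeing the data). Leaving out each library in turn in limma gave 0 to 7 genes higher, 0 to 1 lower and a median log2 fold change of -0.10 to 0.26. Without any library left out, the count called lower was 0 in each of these settings, and the median ran from 0.06 to 0.11. The cause was not tested.

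No paired analysis was possible because the recovered libraries cannot be tied to the replicate numbers in the labels. With 2 sham libraries, 1 of them at the lowest depth, intervals are wide: 30 of 46 reach past 1.5-fold in at least 1 direction. Limma called only 2 genes higher and 1 lower among 15313, so its counts of 0 among the complex I genes say little.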

Other observations

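Regulators of mitochondrial biogenesis had 11 tested members in the authors' deposited table, with 0 called by the DESeq2 Wald test, 2 at an unadjusted p below 0.05, where 10.5% of all tested genes were, and a median log2 fold change of 0.21. Those 2 were Tfam, which packages and transcribes mitochondrial DNA (0.42, SE 0.20, adjusted p = 0.402), and Gabpb1, a subunit of the factor also known as nuclear respiratory factor 2 (0.47, SE 0.23, adjusted p = 0.416). Tfam held 695 and 719 normalised reads in the deeper and the shallower sham library and 990, 918 and 925 in the stroke libraries, with no overlap. Gabpb1 held 345 and 352 against 516, 490 and 445, again with no overlap. For both, the sham libraries lay close to each other. Over all tested genes with recovered reads, 13.2% had every stroke library above both sham libraries.

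General markers of mitochondrial content had 10 tested members, 0 called and a median log2 fold change of 0.26 in the authors' deposited table. Hspd1, the mitochondrial chaperonin, had the smallest p (1.04, SE 0.43, adjusted p = 0.264, DESeq2), and Timm23, a pore of the inner membrane import machinery, came next (1.01, SE 0.64, adjusted p = 0.653, DESeq2). Hspd1 held 1007 and 2620 normalised reads in the sham libraries and 2876, 3131 and 5190 in the stroke libraries, so stroke library 3 was the highest. Timm23 held 26.5 and 185 in the sham libraries and 210, 211 and 218 in the stroke libraries, so the deeper sham library alone was low.

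Enzymes that feed ubiquinone without complex I had 5 tested members, 0 called and a median log2 fold change of -0.31 in the authors' deposited table, with 4 of 5 below 0. The 2 with the smallest p were Etfdh, which takes electrons from fatty acid oxidation (-0.38, SE 0.26, adjusted p = 0.726, DESeq2), and Dhodh, an enzyme of pyrimidine synthesis (-0.35, SE 0.25, adjusted p = 0.742, DESeq2). Etfdh held 613 and 867 normalised reads in the sham libraries against 512, 555 and 639 in the stroke libraries, which overlap. Dhodh held 365 and 301 normalised reads in the sham libraries against 271, 260 and 254 in the stroke libraries, all lower. Over all tested genes with recovered reads, 11.7% had every stroke library below both sham libraries. None of these lists was tested as a list.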
